A study of Caenorhabditis elegans with 6 samples.

Results

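The transthyretin-related genes of *C. elegans*, named *ttr* with a number, were taken as every gene whose symbol in the WBcel235 annotation is *ttr-* and a number, matched to the sequence-name identifiers of the files, with the transcript of highest mean kept and at least 10 reads summed over the 6 libraries. Of 59 such symbols, 53 were paired with an identifier and 42 of these had enough reads, out of 17682 genes in the files. The smallest member is *ttr-31* with 10 reads in all, and the gene just below the limit is *ttr-12* with 4 reads. Another 10 genes had between 0 and 3 reads (*ttr-3*, *ttr-4*, *ttr-7*, *ttr-9*, *ttr-13*, *ttr-22*, *ttr-28*, *ttr-38*, *ttr-43* and *ttr-58*, of which *ttr-4* is annotated as a pseudogene). The other symbols, *ttr-11*, *ttr-19*, *ttr-52*, *ttr-55*, *ttr-56* and *ttr-57*, were not paired with an identifier and are not analysed here.

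The libraries came from whole day 4 adult hermaphrodites of TJ1060, a sterile strain whose labelled genotype is fem-15(b26);spe-9(hc88). There were 3 batches of about 10000 worms, each kept at 25°C up to day 1 of adulthood and then split over the treatments. The 3 *unc-62* RNAi libraries came from worms fed on bacteria that make double-stranded RNA against *unc-62*, a homeodomain transcription factor, and the 3 control RNAi libraries from worms fed on bacteria with the empty vector. Both were kept for 3 days at 20°C, and the methods give FUDR, ampicillin and IPTG in the plates for RNAi in adults. Each library was made from 400 ng of polyadenylated RNA and enriched for the 3′ ends of transcripts, and its reads of 36 bases were given as RPM, the reads of a transcript scaled to the library's uniquely mapped total. The worms have no progeny but do have a germ line, so the libraries hold RNA of somatic and germ line tissues.

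Transthyretin is a secreted protein of vertebrates that carries thyroid hormone and, with retinol-binding protein, vitamin A in the blood. Nematodes have a large family of small secreted proteins related to it, and most of its members in *C. elegans* have no known function. Among the few that are known in *C. elegans*, TTR-52 binds phosphatidylserine on the surface of dying cells and links them to the engulfment receptor CED-1, and TTR-33 protects dopaminergic neurons from oxidative damage.

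Depth was between 17124802 and 22868980 uniquely mapped reads in the *unc-62* RNAi libraries and between 15188765 and 21463842 in the control RNAi libraries. For the targeted gene, *unc-62* (T28F12.2), there were 17, 39 and 25 reads in *unc-62* RNAi replicates 1, 2 and 3, against 27, 31 and 26 in control RNAi replicates 1, 2 and 3, so its level does not check the labels (log2 fold change -0.27, adjusted p = 0.75 from limma). The *unc-62* RNAi libraries were sequenced in another lane than the control RNAi libraries, and lane and treatment cannot be told apart. Of 10 marker genes each, 10 for intestine, 10 for body wall muscle, 10 for germ line and oocytes, 6 for hypodermis, 5 for pharynx, 4 for neurons and 4 for sperm were tested, and of 3 for coelomocytes 0 were. Summed RPM in *unc-62* RNAi against control RNAi libraries was 4928 to 7180 against 4067 to 4844 for intestine, 178 to 365 against 204 to 598 for body wall muscle, 533 to 984 against 806 to 1732 for hypodermis, 4.76 to 6.47 against 8.39 to 16.5 for pharynx, 18.6 to 38.4 against 19.9 to 35.5 for neurons, 39.5 to 84.9 against 63.8 to 196 for sperm, and 0.162 to 0.35 against 0.0585 to 0.373 for coelomocytes. The germ line and oocyte markers summed to 903, 699 and 1627 RPM in *unc-62* RNAi replicates 1, 2 and 3, against 802, 709 and 681 RPM in control RNAi replicates 1, 2 and 3. In intestine and hypodermis a few genes carried most of the sum. Mean RPM upon *unc-62* RNAi and in control was 1502 and 379 for *asp-1*, 336 and 189 for *cpr-5*, and 3978 and 3754 for *cpr-1*. It was 295 and 518 for *col-140* and 251 and 452 for *col-19*. In intestine *elt-2* (log2 fold change -0.32) and *act-5* (-0.08) were below 0 and the others above. In hypodermis *lin-26* (0.37) was above 0 and the other tested ones below. Only the hypodermal *rol-6* and the pharyngeal *myo-2* were called among these markers, both lower upon *unc-62* RNAi, and *ceh-22* of the pharynx was at 0 in every library. In whole worms, fewer cells of a type, less RNA per cell and a change of the marker genes themselves cannot be told apart. The hypodermis list holds collagen genes such as *col-19* and *col-140*, and the study reports many collagen genes among those decreased upon *unc-62* RNAi.

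Levels of the 42 genes differed far more between genes than between treatments. Because reads come from the 3′ ends, RPM was compared between genes without and with division by coding length, which gave the same order for the 5 highest. *ttr-16* (Y5F2A.1, chromosome IV), at 847 RPM over all 6 libraries, was 5.87 times the next gene. It was followed by *ttr-15* (T07C4.5, chromosome III) at 144 RPM, *ttr-2* (K03H1.4, chromosome III) at 104.4 RPM, *ttr-45* (JC8.14, chromosome IV) at 44.2 RPM and *ttr-51* (JC8.8, chromosome IV) at 25.1 RPM. Per kilobase of coding length in WBcel235 these were 2140 RPM for *ttr-16*, 370 for *ttr-15*, 235.0 for *ttr-2*, 105 for *ttr-45* and 60.7 for *ttr-51*. The neighbours *ttr-15*, *ttr-2*, *ttr-45* and *ttr-51* in this order overlapped over libraries, while *ttr-16* was above all others in each of the 6 libraries. Among all 17682 genes *ttr-16* stood at rank 151 of mean RPM and *ttr-15* at rank 447. In all, 3 members were above 100 RPM, 4 between 10 and 100, 17 between 1 and 10, and 18 at 1 RPM or less.

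**Figure D1:**
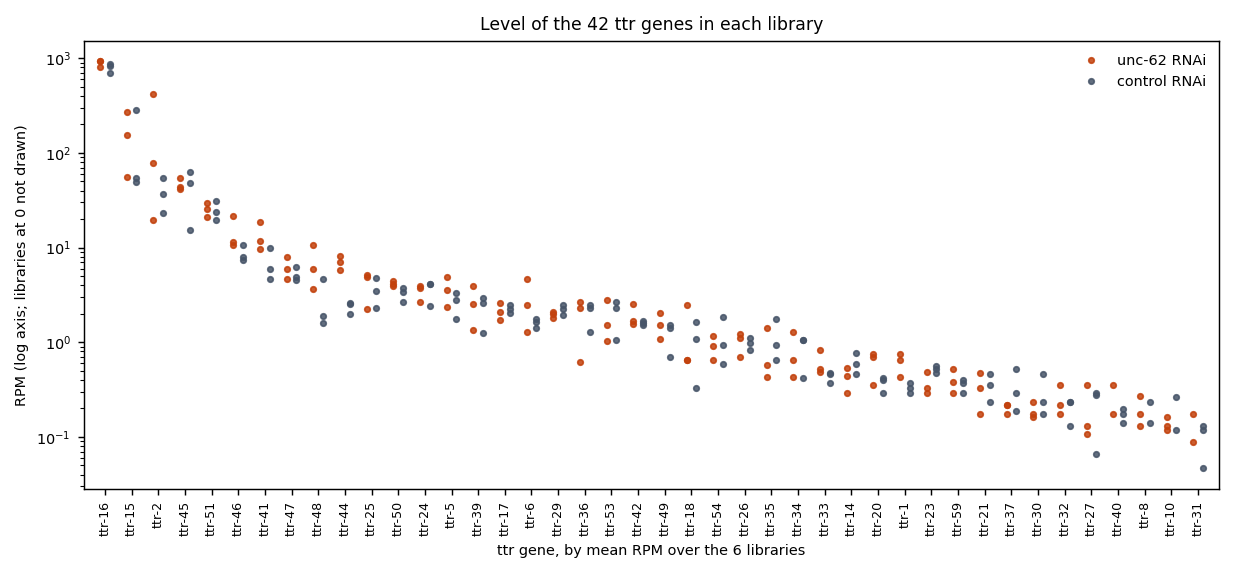
RPM (log axis) of each of the 42 *ttr* genes in each library, with *unc-62* RNAi libraries left of control RNAi libraries at each gene and genes in order of mean RPM; libraries with 0 reads are not drawn. *ttr-16* lies above all others between 701 and 934 RPM, the points of both treatments overlap for most genes, and *ttr-44* is an exception.

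The products predicted by the longest coding sequence in WBcel235 are small, with a median of 143 residues, and 40 of the 42 were between 100 and 200 residues. The exceptions were *ttr-14* with 406 and *ttr-50* with 213. No member lies on chromosome I, while 2 are on chromosome II, 6 on III, 9 on IV, 14 on V and 11 on X.

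Reads on the whole family numbered 25152, 26354 and 28144 in *unc-62* RNAi replicates 1, 2 and 3, against 20440, 18669 and 18674 in control RNAi replicates 1, 2 and 3. As RPM these sums were 1469, 1152 and 1521 in *unc-62* RNAi libraries, against 1346, 1092 and 870 in control RNAi libraries, so the groups overlapped. The ratio of *unc-62* RNAi to control RNAi was 1.09, 1.056 and 1.75 in replicates 1, 2 and 3, and the ratio of the means was 1.25 with all replicates and 1.08 without replicate 3. *ttr-16* alone took 63.6%, 80.5% and 53.0% of the family's reads in *unc-62* RNAi libraries, against 62.2%, 80.4% and 80.6% in control RNAi libraries. In *unc-62* RNAi replicate 3 its lower share went with a high level of *ttr-2*. The 37 members below the 5 highest summed to 113, 82.9 and 72.1 RPM in *unc-62* RNAi replicates 1, 2 and 3, against 78.1, 55.0 and 57.4 RPM in control RNAi replicates 1, 2 and 3. This smaller sum was higher upon *unc-62* RNAi in each of the 3 replicates, although the groups overlapped. The 37 include *ttr-46* and *ttr-41*, with means of 14.6 and 13.3 RPM upon *unc-62* RNAi and 8.70 and 6.83 RPM in control. They also include *ttr-44* and *ttr-48*, with means of 6.95 and 6.75 RPM upon *unc-62* RNAi and 2.37 and 2.71 RPM in control. Each of these was higher in all 3 replicates, so the sum is not a result apart from them.

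**Figure D2:**
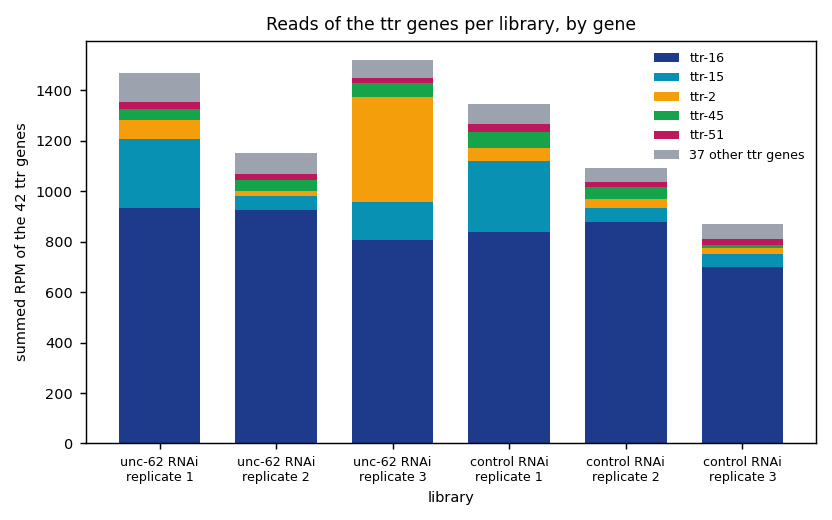
Summed RPM of the 42 *ttr* genes in each library, stacked by gene, with the 3 *unc-62* RNAi libraries left of the 3 control RNAi libraries. Bars reach between 870 and 1521 RPM, *ttr-16* is the largest part of each bar, and the *ttr-2* part stands out in *unc-62* RNAi replicate 3.

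To ask which members changed upon *unc-62* RNAi, the 26 members with at least 10 reads in all 3 libraries of 1 treatment were tested among 7333 genes. *ttr-18* passed this filter only through the *unc-62* RNAi libraries and *ttr-35* only through the control RNAi libraries. Fold changes are log2(RPM + 0.05) in *unc-62* RNAi minus control RNAi after TMM scaling, fitted in limma with a block for the replicate, and a gene was called at a Benjamini-Hochberg adjusted p under 0.1 over all 7333 genes. The 0.05 RPM added understates the change of low genes. Of the 26 members, 1 was called as increased, *ttr-44*, where 0.491% of all tested genes were, and 0 were called as decreased, where 0.818% of all tested genes were. At an unadjusted p under 0.05, limma gave 4 of 26 members as increased (4.79% of all tested genes) and 0 as decreased (8.56% of all tested genes), and in either direction edgeR gave 4 members (13.5% of all tested genes) and DESeq2 gave 3 (9.45% of all tested genes). Rank products, the method of the study, called 0 of 26 in either direction, where it called 0.927% of all tested genes as increased and 1.57% as decreased.

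*ttr-44* (C56A3.2, chromosome V) had 7.01, 5.73 and 8.11 RPM in *unc-62* RNAi replicates 1, 2 and 3, against 2.57, 1.99 and 2.56 RPM in control RNAi replicates 1, 2 and 3. Every *unc-62* RNAi library was above every control RNAi library, and the mean was 2.93 times higher. The means were 6.95 ± 1.19 RPM upon *unc-62* RNAi and 2.37 ± 0.333 RPM in control (SD, n = 3 each). The log2 fold change was 1.502 (standard error 0.20, 95% interval 0.99 to 2.01, adjusted p = 0.078 from limma), at 1.41, 1.43 and 1.66 in replicates 1, 2 and 3. These values rest on 120, 131 and 150 reads in *unc-62* RNAi libraries and 39, 34 and 55 reads in control RNAi libraries. The call was lost without replicate 1 (adjusted p = 0.50) and without replicate 2 (adjusted p = 0.34), each with 1 residual degree of freedom in limma. The log2 fold change stayed at 1.56 and 1.54 there. Without replicate 3, also with 1 residual degree of freedom, *ttr-44* was called (adjusted p = 2.8e-05 from limma, log2 fold change 1.45). In that fit 1165 of all tested genes were called. By rank products the proportion of false positives for it was 0.12, above the 0.1 allowed.

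*ttr-48* (ZC64.2, chromosome X) had 10.7, 5.95 and 3.62 RPM in *unc-62* RNAi replicates 1, 2 and 3, against 4.67, 1.87 and 1.58 RPM in control RNAi replicates 1, 2 and 3. The groups overlapped because replicate 1 was high in both treatments, but *unc-62* RNAi was higher within each replicate. Its log2 fold change of 1.31 (standard error 0.21) was just outside the threshold (adjusted p = 0.108 from limma), and DESeq2 and the fit with no filter called it.

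*ttr-41* (F10G7.11, chromosome II) had 18.6, 11.6 and 9.62 RPM in *unc-62* RNAi replicates 1, 2 and 3, against 9.94, 4.68 and 5.87 RPM in control RNAi replicates 1, 2 and 3, and only *unc-62* RNAi replicate 3 fell below the highest control library. It did not pass the threshold (log2 fold change 0.95, standard error 0.22, adjusted p = 0.17 from limma). *ttr-46* (T07C12.7, chromosome V) had 21.5, 10.7 and 11.5 RPM in *unc-62* RNAi replicates 1, 2 and 3, against 10.7, 7.37 and 8.01 RPM in control RNAi replicates 1, 2 and 3. Its groups overlapped only between *unc-62* RNAi replicate 2 and control RNAi replicate 1, and it too was not called (log2 fold change 0.66, standard error 0.22, adjusted p = 0.30 from limma). With *ttr-44* and *ttr-48* these were the only members whose 95% interval lay above 0, and the intervals of the other 22 included 0.

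**Figure D3:**
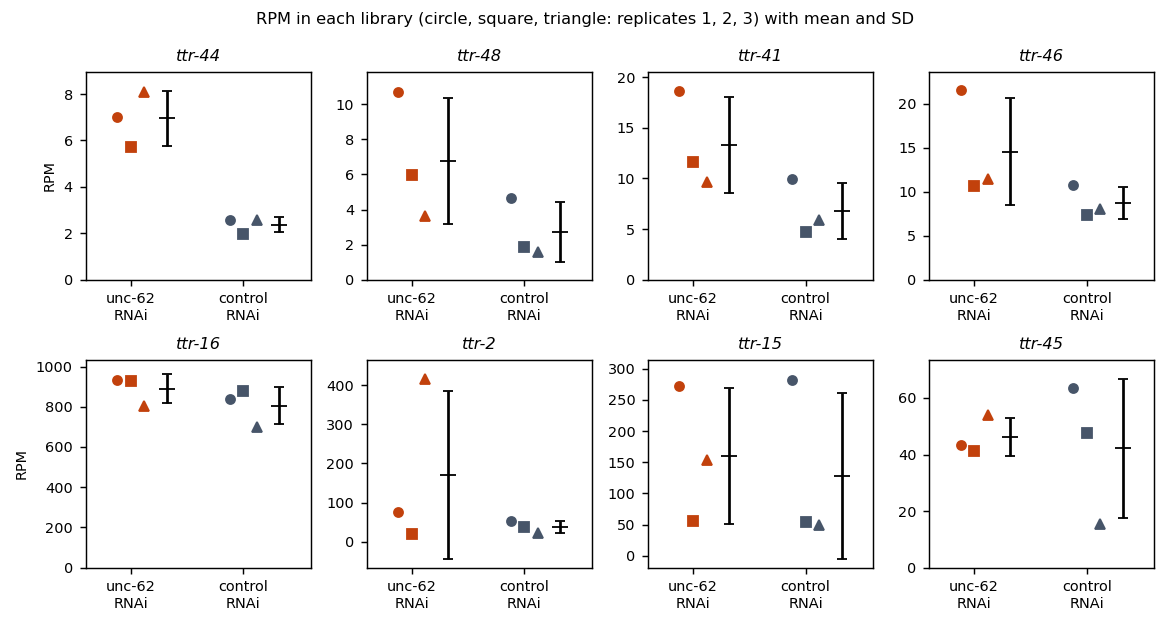
RPM of 8 *ttr* genes in each library, *unc-62* RNAi left of control RNAi, with circles, squares and triangles for replicates 1, 2 and 3 and bars for the mean and SD (n = 3). In the upper row *ttr-44* does not overlap between treatments and *ttr-48*, *ttr-41* and *ttr-46* are higher upon *unc-62* RNAi within each replicate; in the lower row *ttr-16* is even, *ttr-2* is high in *unc-62* RNAi replicate 3, *ttr-15* is high in replicate 1 of both treatments and *ttr-45* is low in control RNAi replicate 3.

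*ttr-50* (F58B3.9, chromosome IV) was the other tested member without overlap, at 3.97, 4.46 and 4.11 RPM in *unc-62* RNAi replicates 1, 2 and 3, against 3.42, 2.63 and 3.77 RPM in control RNAi replicates 1, 2 and 3. The gap between the groups was small and the gene was not called (log2 fold change 0.34, 95% interval -0.23 to 0.90, adjusted p = 0.63 from limma). The 2 members with every *unc-62* RNAi library above every control library compare with 6.44% of all tested genes, and 0 members had the reverse order, against 6.93% of all tested genes. In exact permutation tests of single genes, 3 libraries against 3 cannot go below p = 0.1, which *ttr-44* and *ttr-50* reached (two-sided).

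Across the 26 tested members the median log2 fold change was 0.21, against 0.04 for all tested genes, and 19 were above 0, where 54.1% of all tested genes were. By replicate the median of the members was 0.11, 0.39 and 0.11 in replicates 1, 2 and 3, against 0.03, -0.06 and -0.05 for all tested genes. The members higher in all 3 replicates numbered 7, *ttr-16*, *ttr-25*, *ttr-41*, *ttr-44*, *ttr-46*, *ttr-48* and *ttr-50*, where 16.4% of all tested genes were. This count leans on *ttr-25*, which was at 0.01 in replicate 3 and, as deposited, at 2.27 RPM upon *unc-62* RNAi and 2.28 RPM in control there, and on *ttr-16*, which was at 0.0031 in replicate 2. *ttr-35* was the only member lower in all 3 replicates, where 19.8% of all tested genes were. The other 18 went both ways between replicates. Fold changes were within 0.5 of 0 for 18 members, above 0.5 for 7 and below -0.5 for 1.

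**Figure D4:**
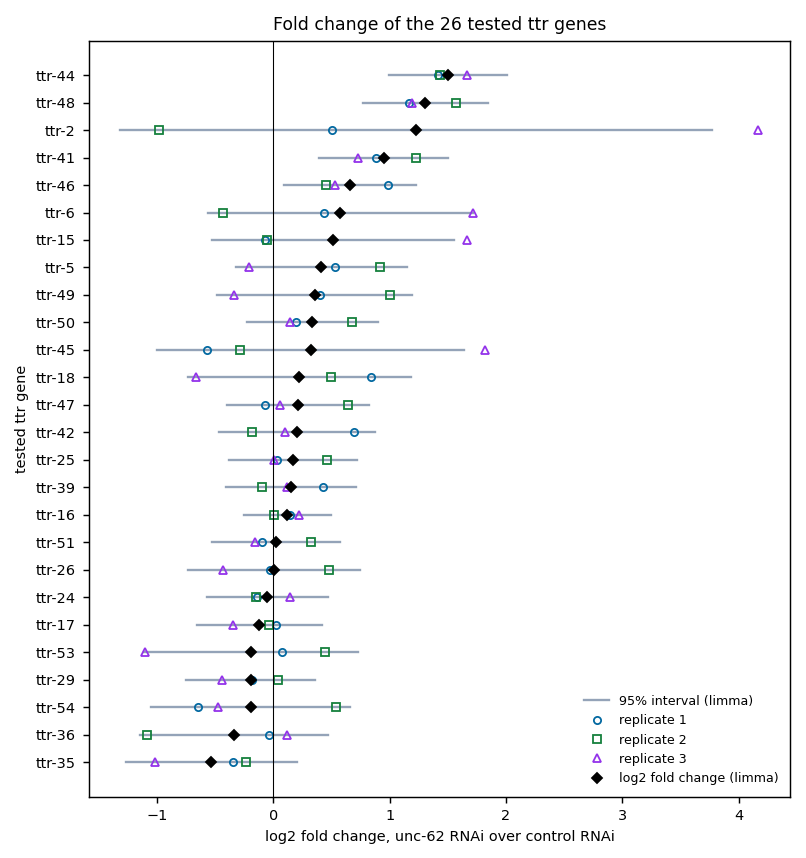
Log2 fold change of *unc-62* RNAi over control RNAi for the 26 tested *ttr* genes, with the limma estimate (diamond), its 95% interval (line) and the 3 replicates (open symbols). The intervals of *ttr-44*, *ttr-48*, *ttr-41* and *ttr-46* lie above 0, and *ttr-2* has the widest, from -1.31 to 3.77, with replicate 3 at 4.17.

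*ttr-16*, the most abundant member, was even across libraries. It had 934, 928 and 806 RPM in *unc-62* RNAi replicates 1, 2 and 3, against 837, 878 and 701 RPM in control RNAi replicates 1, 2 and 3. The highest library was only 1.33 times the lowest, the smallest such ratio of the 26. Its log2 fold change was 0.12 with the smallest standard error of the members, 0.15, and a 95% interval of -0.25 to 0.50 (adjusted p = 0.78 from limma). *ttr-51* was less even, with a highest library 1.59 times the lowest. It had 29.3, 25.8 and 21.3 RPM in *unc-62* RNAi replicates 1, 2 and 3, against 31.0, 19.5 and 24.0 RPM in control RNAi replicates 1, 2 and 3 (log2 fold change 0.02, 95% interval -0.53 to 0.57, adjusted p = 0.98 from limma).

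The other abundant members varied strongly between libraries of the same treatment. *ttr-2* had 77.4, 19.6 and 415 RPM in *unc-62* RNAi replicates 1, 2 and 3, against 53.99, 36.8 and 23.3 RPM in control RNAi replicates 1, 2 and 3. Its highest library was 21.2 times its lowest, the widest range of the 26, and *unc-62* RNAi replicate 3 stood apart from the other 5. The log2 fold change of 1.23 had a standard error of 0.99 (adjusted p = 0.68 from limma), and without replicate 3 it was -0.22. *ttr-15* had 272, 55.1 and 153 RPM in *unc-62* RNAi replicates 1, 2 and 3, against 282, 54.4 and 48.8 RPM in control RNAi replicates 1, 2 and 3. It was high in replicate 1 of both treatments and alike in replicate 2 of both, and its log2 fold changes were -0.07, -0.06 and 1.67 in replicates 1, 2 and 3. *ttr-45* had 43.2, 41.4 and 53.8 RPM in *unc-62* RNAi replicates 1, 2 and 3, against 63.5, 47.8 and 15.4 RPM in control RNAi replicates 1, 2 and 3. Here control RNAi replicate 3 was low, and the log2 fold changes of -0.57, -0.28 and 1.82 changed sign at replicate 3.

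*ttr-6* (T28B4.3, chromosome X), which was picked out after its values were seen, shared this pattern at a lower level, with 2.45, 1.27 and 4.65 RPM in *unc-62* RNAi replicates 1, 2 and 3, against 1.78, 1.64 and 1.40 RPM in control RNAi replicates 1, 2 and 3. A log2 fold change above 1.5 in replicate 3 and within 1 of 0 in replicates 1 and 2 was thus seen for 4 of 26 members, *ttr-2*, *ttr-6*, *ttr-15* and *ttr-45*, and for 6.97% of all tested genes. This pattern was defined after the values were seen. Replicate 3 had the widest spread of fold changes, with an SD of 1.13 over the members and 1.23 over all tested genes, against 0.52 and 0.66 in replicate 1 and 0.66 and 0.70 in replicate 2. Among the germ line and oocyte markers, all 10 of them tested and none at 0, *cpg-2*, a protein of the eggshell, had 12656 reads in *unc-62* RNAi replicate 3 and 1108 to 1986 in the other 5 libraries. *glh-1*, a germ granule helicase, had 6871 reads in *unc-62* RNAi replicate 3, 398 in control RNAi replicate 3 and 1219 to 2750 in the others. The other 8 differed less: their log2 fold changes in replicate 3 ran from -1.16 for *gld-1* to 1.27 for *egg-1*. Of these, *egg-1* (995 reads) and *puf-5* (202 reads) also had their most reads in *unc-62* RNAi replicate 3. *pgl-1*, *oma-1* and *oma-2* were below 0 in replicate 3 like *gld-1*, and the median of all 10 was 0.10. Large differences in replicate 3 were also seen outside this list. The intestinal *asp-1* had 40694 reads in *unc-62* RNAi replicate 3 and 4278 in control RNAi replicate 3, and the hypodermal *lin-26* had 517 and 217. The log2 fold changes of *asp-1* were 1.39, 1.11 and 3.48 in replicates 1, 2 and 3, and those of *lin-26* 0.08, -0.44 and 1.48. In replicate 3 the median was 0.10 for the intestine list and -0.69 for the hypodermis list. The part of RNA of the germ line or of another tissue in the replicate 3 values of the *ttr* genes was not tested.

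No member was called as decreased, and the lowest fold changes were of genes with few reads. *ttr-35* (F22A3.2, chromosome X) had 1.40, 0.568 and 0.432 RPM in *unc-62* RNAi replicates 1, 2 and 3, against 1.78, 0.643 and 0.932 RPM in control RNAi replicates 1, 2 and 3, from 8 to 27 reads a library. The groups overlapped and the log2 fold change was -0.53 (standard error 0.29, adjusted p = 0.54 from limma). *ttr-36* (F22A3.7, chromosome X) had 2.28, 0.612 and 2.65 RPM in *unc-62* RNAi replicates 1, 2 and 3, against 2.30, 1.29 and 2.47 RPM in control RNAi replicates 1, 2 and 3. Only replicate 2 differed by much, and the log2 fold change was -0.33 (adjusted p = 0.72 from limma).

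*ttr-29* (R90.4, chromosome V) had 1.99, 2.10 and 1.78 RPM in *unc-62* RNAi replicates 1, 2 and 3, against 2.24, 1.93 and 2.47 RPM in control RNAi replicates 1, 2 and 3, a log2 fold change of -0.19 (95% interval -0.75 to 0.36). *ttr-53* (T14G10.3, chromosome IV) had 2.80, 1.53 and 1.03 RPM in *unc-62* RNAi replicates 1, 2 and 3, against 2.63, 1.05 and 2.28 RPM in control RNAi replicates 1, 2 and 3. *ttr-54* (T14G10.4, chromosome IV) had 1.17, 0.918 and 0.649 RPM in *unc-62* RNAi replicates 1, 2 and 3, against 1.84, 0.585 and 0.932 RPM in control RNAi replicates 1, 2 and 3. Both overlapped widely between treatments, with log2 fold changes of -0.19 each (adjusted p = 0.86 for *ttr-53* and 0.85 for *ttr-54* from limma).

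The remaining 10 tested members (*ttr-5*, *ttr-17*, *ttr-18*, *ttr-24*, *ttr-25*, *ttr-26*, *ttr-39*, *ttr-42*, *ttr-47* and *ttr-49*) had log2 fold changes between -0.12 for *ttr-17* and 0.41 for *ttr-5*. *ttr-5* (C40H1.5, chromosome III) had 4.85, 3.54 and 2.38 RPM in *unc-62* RNAi replicates 1, 2 and 3, against 3.29, 1.75 and 2.80 RPM in control RNAi replicates 1, 2 and 3. It was higher upon *unc-62* RNAi in replicates 1 and 2 and lower in replicate 3, and limma called it only when replicate 3 was left out (adjusted p = 0.65 with all 3). *ttr-49* (E02C12.13, chromosome V) went the same ways at a lower level, with 2.04, 1.53 and 1.08 RPM in *unc-62* RNAi replicates 1, 2 and 3, against 1.51, 0.702 and 1.40 RPM in control RNAi replicates 1, 2 and 3. *ttr-47* (H14N18.3, chromosome V) differed mainly in replicate 2, with 5.96, 8.002 and 4.70 RPM in *unc-62* RNAi replicates 1, 2 and 3, against 6.19, 4.85 and 4.57 RPM in control RNAi replicates 1, 2 and 3. The treatments overlapped for all 10 of these genes. *ttr-18* (B0334.1, chromosome II) varied more between replicates than between treatments, with 11, 56 and 12 reads in *unc-62* RNAi replicates 1, 2 and 3, against 5, 28 and 23 reads in control RNAi replicates 1, 2 and 3. Among all 26 members, 9 had a highest library less than 2 times the lowest and 12 had one at least 3 times the lowest. The standard error of a log2 fold change had a median of 0.25 and ran from 0.15 to 0.99.

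The 16 members that were not tested had between 0 and 22 reads in a library and 10 to 88 reads over all 6. The highest was *ttr-34* (F09A5.9, chromosome X), with 22, 15 and 8 reads in *unc-62* RNAi replicates 1, 2 and 3, against 16, 18 and 9 in control RNAi replicates 1, 2 and 3. Of these, 14 overlapped between treatments, and *ttr-1* and *ttr-33* did not, with every *unc-62* RNAi library above every control library, as for 5.86% of the 3822 genes that had at least 10 reads but were not tested. *ttr-33* (C37C3.13, chromosome V), the member that protects dopaminergic neurons, had 14, 12 and 9 reads in *unc-62* RNAi replicates 1, 2 and 3, against 7, 8 and 8 in control RNAi replicates 1, 2 and 3. As RPM this was 0.818, 0.525 and 0.486 in *unc-62* RNAi libraries, against 0.461, 0.468 and 0.373 in control RNAi libraries, so that the groups did not overlap but lay within a few reads of each other. In the fit with no filter, over 15707 genes, its log2 fold change was 0.39 (adjusted p = 0.83 from limma). *ttr-1* (K03H1.6, chromosome III) had 11, 17 and 8 reads in *unc-62* RNAi replicates 1, 2 and 3, against 5, 5 and 8 in control RNAi replicates 1, 2 and 3, and was the highest of the 16 in that fit, at 0.73 (adjusted p = 0.72 from limma). The lowest was *ttr-37* at -0.52. In that fit limma called 0 of the 16, where it called 1.62% of all 15707 genes, and 0 had an unadjusted p under 0.05, where 9.46% of all 15707 genes did.

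Many *ttr* genes lie next to each other. In the order of protein-coding genes in WBcel235, 28 *ttr* genes formed 12 runs of neighbours, 8 of 2 genes and 4 of 3, and 21 of the 42 members were in such runs. Some neighbours differed widely in level. *ttr-16* was at 889 RPM upon *unc-62* RNAi and 805 RPM in control, while its neighbour *ttr-17*, on the same strand, was at 2.13 RPM upon *unc-62* RNAi and 2.26 RPM in control. *ttr-2* was at 171 RPM upon *unc-62* RNAi and 38.1 RPM in control, and its neighbour *ttr-1* on the same strand at 0.606 RPM upon *unc-62* RNAi and 0.331 RPM in control. In *unc-62* RNAi replicate 3, where *ttr-2* was high, *ttr-1* had 8 reads.

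Levels also differed widely within some other runs. *ttr-49* averaged 1.38 RPM over the 6 libraries and its neighbour *ttr-40* 0.173 RPM, and *ttr-29* averaged 2.08 RPM and *ttr-27* in its run 0.205 RPM. Other neighbours were closer in level. The averages were 44.2 RPM for *ttr-45* and 25.1 for *ttr-51*, 1.89 for *ttr-53* and 1.02 for *ttr-54*, and 1.93 for *ttr-36* and 0.959 for *ttr-35*. They were 0.376 RPM for *ttr-59* and 0.240 for *ttr-30*, and 0.223 for *ttr-32* and 0.158 for *ttr-8*. *ttr-24*, *ttr-25* and *ttr-26*, a run on chromosome V, were at 3.44, 4.10 and 1.01 RPM upon *unc-62* RNAi and at 3.55, 3.51 and 0.972 RPM in control, with log2 fold changes of -0.05, 0.17 and 0.01. *ttr-53* and *ttr-54* form a pair on chromosome IV and *ttr-35* and *ttr-36* one on chromosome X, and the 4 of them had log2 fold changes below 0. Of the 26 tested members 19 were above 0, as were 54.1% of all tested genes. Among the 4, only *ttr-35* was lower in all 3 replicates, and *ttr-53* was at 0.07, 0.45 and -1.10 in replicates 1, 2 and 3. None of the 4 was called. *ttr-45* and *ttr-51*, a pair on opposite strands of chromosome IV, differed in replicate 3, where the log2 fold change was 1.82 for *ttr-45* and -0.16 for *ttr-51*. *ttr-44*, *ttr-48*, *ttr-41* and *ttr-46* are each outside such a run, as are 21 of all 42 members. Reads that map equally well to several genes were left out by the authors, so the level of a member with a close copy is uncertain to that extent.

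Genes of engulfment and of phosphatidylserine recognition, the process in which TTR-52 acts, were taken from a list of 19. The list covers the process at large and not only genes that act with TTR-52. Of the 19, 18 were paired with an identifier and 16 were tested. limma called 0 of the 16 in either direction, and their median log2 fold change was -0.04, against 0.04 for all tested genes. The lowest were *ced-1*, the engulfment receptor, at 5.33 ± 0.691 RPM upon *unc-62* RNAi and 9.12 ± 1.11 RPM in control (SD, n = 3 each), and *ced-2*, an adaptor that acts upstream of the Rac GTPase CED-10. *ced-1* had 100, 128 and 84 reads in *unc-62* RNAi replicates 1, 2 and 3, against 158, 146 and 181 in control RNAi replicates 1, 2 and 3. Its log2 fold change was -0.80 (standard error 0.20), and it did not pass the threshold (adjusted p = 0.19 from limma). *ced-2* was at -0.73 (standard error 0.21, adjusted p = 0.23 from limma). The highest was *pat-2*, an integrin alpha subunit, at 0.66 (standard error 0.25, adjusted p = 0.36 from limma), with 64, 34 and 12 reads in *unc-62* RNAi replicates 1, 2 and 3, against 28, 15 and 11 in control RNAi replicates 1, 2 and 3.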

How the data were processed

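The members and the gene lists were chosen with earlier results of these data known. The authors removed reads with runs of A or T, mapped the rest with Bowtie 0.12.7 (after CASAVA 1.7.0) to WS215 and kept reads unique to the sense strand of a transcript. They deposited a signal for each of 25531 transcripts, namely RPM, set by the library's total of unique reads. Columns sum to between 2160231 and 2236967 because transcripts of a gene share reads. From the value of 1 read, 100.0% of 153186 values came within 0.01 of whole reads, which served for filters and count models. The 2 identifiers naming no gene held 0 reads. Names come from the WBcel235 tables (16959 of 17682 genes paired). Since WS215 is another build, no coordinates are given, and no sequences were used, so the planned motif and protein comparisons were not made.

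limma 3.58.1 (R 4.3.3) with a variance trend was fitted to log2(RPM + 0.05) after TMM scaling on the tested genes, with the replicate as a block, because the methods divide each batch between treatments and take fold changes within replicates. That equal numbers share a batch is not stated. edgeR 4.0.16, DESeq2 1.42.0 and rank products (10000 permutations) were alternatives. Libraries of a group differed beyond counting error (chi-square per degree of freedom 36.8 to 201). Intervals are limma's at 95%. Models were also run on simulated data, which had no differences between batches and no outlying library. Those runs therefore do not cover the uneven replicates seen here. Named genes are those called, those without overlap and with the same direction in all replicates, the 5 highest and 5 lowest fold changes, the 5 most abundant, and *ttr-33* for its known role, and other members named with values were chosen after these were seen.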

Additional observations from a re-analysis of the deposited data

How the results depend on the processing

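*ttr-44* was the 1 member called by limma and remained called with no replicate block (adjusted p = 0.058), RPM as deposited, median ratio scaling, TMM on the mapped totals (added after seeing the data), a pseudocount of 0.5 RPM, no filter, edgeR with the block or without it (without it added after seeing the data) and DESeq2, with adjusted p between 0.0035 and 0.089. No call of another member changed with no replicate block, which called 60 of all tested genes as increased and 82 as decreased, against 36 and 60 with it. Deviations from the group means correlated at 0.42, 0.20 and -0.18 between libraries numbered 1, 2 and 3, so the block rests on the study's methods and not on the data. *unc-62* RNAi replicate 2 correlated best with control RNAi replicate 3 (0.26), and *unc-62* RNAi replicate 3 was at 0.10 with each of control RNAi replicates 1 and 2. The count of increased members was 2 with no filter and with DESeq2, *ttr-44* and *ttr-48*, and 0 at a threshold of 0.05 and by rank products. Leaving out a replicate it was 0 to 5, with 0 without replicate 1 or 2 and the 5 without replicate 3 being *ttr-5*, *ttr-41*, *ttr-44*, *ttr-46* and *ttr-48*. No setting called a member as decreased. Over all tested genes, 96 were called, and 255 with no filter, 294 by DESeq2, 15 at a threshold of 0.05, 183 by rank products, and 0, 23 and 1165 without replicates 1, 2 and 3. The median log2 fold change of the members stayed between 0.13 and 0.23. Direction with a replicate left out was followed only for the 15 tested members that met the naming rule, and not for the other tested members. Among the 15, it turned without replicate 3 for *ttr-2* (-0.22 to 2.34), *ttr-15* (-0.038 to 0.82), *ttr-45* (-0.40 to 0.78) and *ttr-53* (-0.51 to 0.28). It turned for *ttr-36* (-0.54 to 0.043) and *ttr-51* (-0.13 to 0.14) without replicate 2, and for *ttr-54* (-0.56 to 0.041) without replicate 1. The fits with a replicate left out use fewer samples, and the cause of the other differences was not tested. The 16 members under the filter rest on at most 22 reads a library, with standard errors of 0.40 to 0.66 on their log2 fold changes in the fit with no filter.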
